A study of Mus musculus with 12 samples.

Results

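The secreted frizzled-related proteins are a family of 5 mouse genes, Sfrp1, Sfrp2, Sfrp4, Sfrp5 and Frzb (also called Sfrp3), and all 5 were measured among 50559 gene rows in RNA sequencing of visceral white fat. The members were taken by gene symbol, and the family was singled out because its levels, in CPM (a gene's counts scaled by its library's total), were already known to differ between the study's 4 groups. Those levels are therefore given as a description, and the intervals and calls printed for the members describe the fit and are not used as evidence. The 4 groups, with 3 libraries each, were transgenic mice on a high-fat diet, transgenic mice on control chow, wild-type mice on the high-fat diet and wild-type mice on control chow. All mice were of the FVB/N strain. Transgenic mice carried a tTA driver and a TGF-b1 transgene, both driven from the alpha-MHC promoter of heart muscle, so that TGF-b1 was over-expressed in the heart and not by design in fat. The wild-type littermates carried the tTA driver alone, so every library came from a mouse with that driver. The high-fat diet gave 60% of its energy as fat and the chow 17%, and feeding was started in mice of 8 to 10 weeks and lasted 2 or 6 weeks, without a label that ties a duration to a library. No label states that the libraries are from separate mice, and p-values then measure only the spread between libraries, which may be technical.

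Wnt proteins signal by binding frizzled receptors through a cysteine-rich domain. Secreted frizzled-related proteins carry a like domain without a membrane anchor, bind Wnts outside the cell and mostly dampen signalling, and they also carry a netrin-like domain. In fat, canonical Wnt signalling through beta-catenin restrains the making of new adipocytes, and in mice Sfrp5 is an adipocyte product whose transcript tracks the expansion of fat depots.

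Totals over genes were 20.1 to 21.3 M counts a library (median 20.9 M), and the 5 members had between 43 and 14571 counts in a library. All 5 passed the filter on low counts that left 16550 genes for the fit. Adipocyte markers summed to 39666 to 41347 CPM in transgenic high-fat libraries, 41257 to 47529 in transgenic control, 38555 to 43856 in wild-type high-fat and 37159 to 45582 in wild-type control, as a fat label requires. Markers of mesothelium, the cell sheet that covers visceral fat, summed to 136 to 392 CPM in transgenic high-fat libraries, 708 to 839 in transgenic control, 420 to 544 in wild-type high-fat and 608 to 1066 in wild-type control, with none of the 11 genes at 0 in any library. Muscle markers stood apart in transgenic control replicate 3 (957 CPM) and wild-type high-fat replicate 3 (688 CPM), against at most 115 CPM elsewhere. Epithelial markers stood apart in transgenic control replicate 2 (210 CPM) and wild-type control replicate 1 (32.2 CPM), against at most 8.31 CPM elsewhere. Liver markers stood apart in wild-type high-fat replicate 2 (349.9 CPM), against at most 60.4 CPM elsewhere. Endogenous Tgfb1 in fat does not check the genotype labels, because the transgene is driven in the heart.

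The region just before a start site is shown for the 3 members matched in the upstream sequences used. These are Sfrp5 and Frzb, the members with the largest differences between diets, and Sfrp2, whose libraries overlapped between the diets in both genotypes. These are the 250 bases before a RefSeq start on GRCm38.p6, printed 5′ to 3′ on the gene's own strand. Capitals mark each GC box (GGGCGG, searched on both strands). The windows of Sfrp5 and Frzb adjoin the gene spans given below. That of Sfrp2 lies inside its gene span (chr3:83765750-83774314), so it is not upstream of the whole gene.
Sfrp5 (chr19:42202253-42202502, minus strand): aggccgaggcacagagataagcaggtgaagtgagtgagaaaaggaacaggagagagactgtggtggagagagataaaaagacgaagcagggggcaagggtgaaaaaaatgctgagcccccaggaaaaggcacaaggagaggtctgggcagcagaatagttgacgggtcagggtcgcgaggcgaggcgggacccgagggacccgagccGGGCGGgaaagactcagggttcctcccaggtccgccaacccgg
Frzb (chr2:80447397-80447646, minus strand): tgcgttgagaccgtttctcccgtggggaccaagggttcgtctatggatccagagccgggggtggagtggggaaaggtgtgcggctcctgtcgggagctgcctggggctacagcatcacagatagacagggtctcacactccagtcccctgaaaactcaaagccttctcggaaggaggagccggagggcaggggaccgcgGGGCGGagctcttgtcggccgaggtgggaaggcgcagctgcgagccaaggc
Sfrp2 (chr3:83766071-83766320, plus strand): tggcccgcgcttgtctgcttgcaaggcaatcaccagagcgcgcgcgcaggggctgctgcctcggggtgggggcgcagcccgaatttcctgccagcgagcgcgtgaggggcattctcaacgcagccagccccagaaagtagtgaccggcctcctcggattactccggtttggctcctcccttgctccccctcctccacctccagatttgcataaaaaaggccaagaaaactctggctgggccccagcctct
Sfrp1 and Sfrp4 had no match in those sequences and are named only.

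A GC box, the usual site of Sp-family factors, occurred once upstream of Sfrp5 and once upstream of Frzb, and not in the Sfrp2 window. It is a common motif, held by 32.7% of 32851 upstream windows of the same length. The core of the TCF/LEF site (CTTTGNT, searched on both strands), through which beta-catenin acts, was in none of the 3 windows and in 16.0% of all. A CAAT box (CCAAT, 33.8% of all) and a TATA box (TATAAA, 12.4% of all) were likewise not among these letters. GC content was 59.6% for Sfrp5, 64.4% for Frzb and 63.6% for Sfrp2, against a median of 52.4% over all windows, and the windows held 13, 16 and 16 CpG pairs, against a median of 6. A motif match is a description of the letters and says nothing about whether a factor bound there.

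Sfrp5 was the most abundant member per kilobase of exon and the one that differed most between groups. It lies at chr19:42197971-42202252 on the minus strand of GRCm38, and its exons overlap no other annotated gene. Its level was 504, 469 and 445 CPM in transgenic high-fat libraries 1 to 3. In transgenic control libraries it was 80.8, 60.0 and 165 CPM. All 3 transgenic high-fat libraries thus lay far above all 3 transgenic control libraries. The means were 473 ± 30.1 CPM in transgenic high-fat and 102 ± 55.6 CPM in transgenic control libraries (SD, n = 3 each). The fitted log2 fold change was 2.25 with a standard error of 0.38, a 4.77-fold higher level on the high-fat diet.

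In wild-type fat Sfrp5 was already high on chow. The wild-type high-fat libraries had 699.5, 610.0 and 541 CPM, and the wild-type control libraries 177, 241 and 531 CPM. The groups did not overlap, but only by the gap between 541 and 531 CPM, since replicate 3 of the wild-type controls stood well above the other two. The means were 617 ± 79.3 CPM in wild-type high-fat and 317 ± 189 CPM in wild-type control libraries (SD, n = 3 each), and the log2 fold change was 0.91 with a standard error of 0.37. Without wild-type control replicate 3 it was 1.46, and without wild-type control replicate 1 it was 0.63.

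Set side by side by genotype, Sfrp5 was lower in transgenic than in wild-type fat on both diets. On chow the log2 fold change of transgenic over wild type was -1.65 (standard error 0.37), with no transgenic library above the lowest wild-type one. It ranged from -2.14 without transgenic control replicate 3 to -1.10 without wild-type control replicate 3. On the high-fat diet the difference was smaller, at -0.30 (standard error 0.36), although the 3 transgenic libraries again all lay below the 3 wild-type ones. The 4 pairwise comparisons share libraries, since each group enters 2 of them, so these values are not independent of each other. The difference between the diet effects, transgenic minus wild type, was 1.35 on the log2 scale with a standard error of 0.52 and a 95% interval from 0.23 to 2.47 before any allowance for the number of genes tested. It ranged from 0.80 without wild-type control replicate 3 to 1.84 without transgenic control replicate 3.

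The order of the 4 group means for Sfrp5 ran from transgenic control through wild-type control and transgenic high-fat to wild-type high-fat. The ranges of transgenic control and wild-type control libraries did not touch, and those of transgenic high-fat and wild-type high-fat did not touch either. Transgenic high-fat and wild-type control were the neighbours that could not be separated, because the wild-type control library at 531 CPM lay above all 3 transgenic high-fat libraries. The libraries on the high-fat diet agreed closely with each other, with a coefficient of variation of 6.37% in transgenic and 12.9% in wild-type mice. On chow it was 54.5% in transgenic and 59.6% in wild-type mice.

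**Figure D1:**
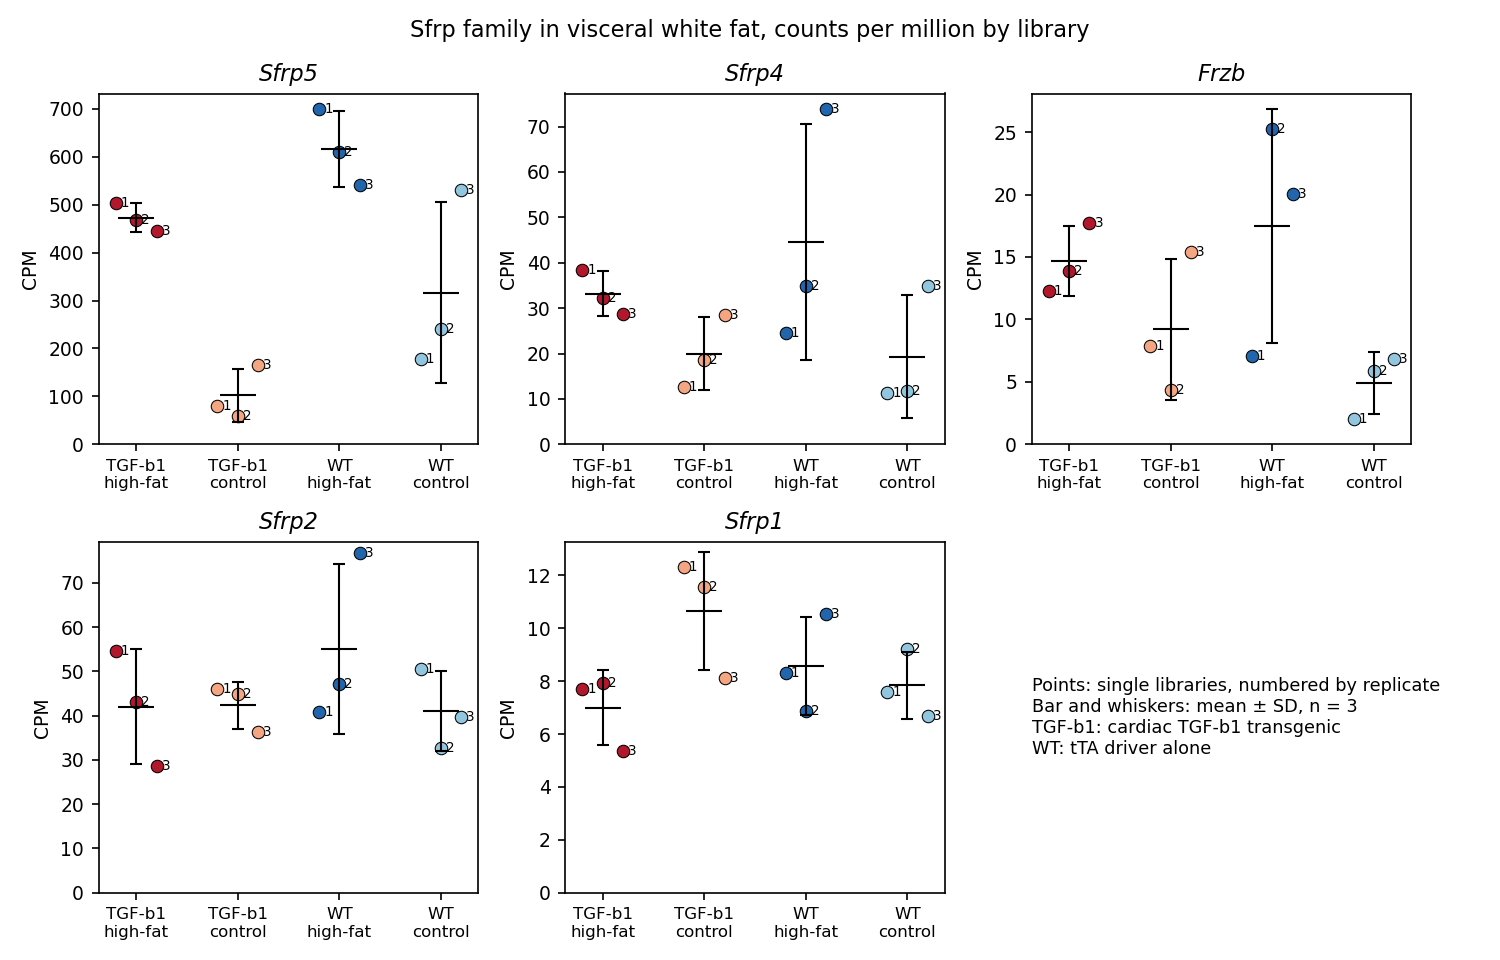
Level of each family member in CPM (linear axis from 0) in the 4 groups, with each point a library numbered by replicate and bars for mean ± SD (n = 3). Sfrp5 separates transgenic high-fat (445 to 504 CPM) from transgenic control libraries (60.0 to 165 CPM), while Sfrp2 and Sfrp1 lie within narrower ranges.

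Sfrp4 and Frzb were also higher on the high-fat diet on average. Sfrp4 encodes a family member that in humans is tied to bone and phosphate handling and is secreted by fat, and it lies at chr13:19623175-19632825 on the plus strand. It had 38.5, 32.3 and 28.7 CPM in transgenic high-fat libraries and 12.6, 18.6 and 28.6 CPM in transgenic control libraries. These groups did not overlap, but the closest libraries had 28.7 CPM (high-fat) and 28.6 CPM (control). In wild-type mice it had 24.6, 35.0 and 73.9 CPM in high-fat libraries and 11.2, 11.7 and 34.9 CPM in control libraries, and here the groups overlapped. The log2 fold change was 0.76 (standard error 0.46) in transgenic and 1.15 (standard error 0.46) in wild-type mice. The wild-type value ranged from 0.56 without wild-type high-fat replicate 3, one of the libraries with high muscle markers, to 1.86 without wild-type control replicate 3. On chow, transgenic fat averaged 19.9 ± 8.04 CPM and wild-type fat 19.3 ± 13.6 CPM (SD, n = 3 each), a log2 difference of 0.05. On the high-fat diet the means were 33.2 ± 4.91 CPM in transgenic and 44.5 ± 26.0 CPM in wild-type fat, a difference well within the wild-type spread.

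Frzb, first known for its part in cartilage, lies at chr2:80411970-80447396 on the minus strand and was a low-level transcript in this fat. Transgenic high-fat libraries had 12.3, 13.9 and 17.7 CPM and transgenic control libraries 7.90, 4.33 and 15.4 CPM. The groups overlapped because transgenic control replicate 3 was above 2 of the high-fat libraries. Wild-type high-fat libraries had 7.06, 25.3 and 20.1 CPM and wild-type control libraries 2.06, 5.88 and 6.79 CPM, without overlap. The log2 fold change was 0.71 (standard error 0.50) in transgenic and 1.75 (standard error 0.52) in wild-type mice, and the difference between them, -1.04, had a standard error of 0.71. The transgenic value was 0.40 without transgenic control replicate 2 and 1.26 without transgenic control replicate 3. The difference between the diet effects was -0.49 without transgenic control replicate 3, -0.67 without wild-type control replicate 1 and -0.70 without wild-type high-fat replicate 2, the library with high liver markers and the highest Frzb level. The wild-type value was 1.41 without that library, and the part of those markers in the result was not tested. On chow, Frzb averaged 9.20 ± 5.64 CPM in transgenic and 4.91 ± 2.51 CPM in wild-type fat (SD, n = 3 each), a log2 fold change of 0.88 that became 0.33 without transgenic control replicate 3, the other library with high muscle markers.

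Sfrp2, which besides Wnts is known in mice to act on procollagen processing, gave no separation by diet or genotype. It lies at chr3:83765750-83774314 on the plus strand, where 16.1% of its exon bases overlap the opposite-strand gene Gm26771, so those reads cannot be assigned with certainty while the strand setting of the counting is unknown. Its level was 54.6, 43.0 and 28.5 CPM in transgenic high-fat and 46.0, 44.8 and 36.3 CPM in transgenic control libraries. In wild-type mice it was 40.9, 47.2 and 76.8 CPM in high-fat and 50.6, 32.7 and 39.7 CPM in control libraries. Every pair of groups overlapped. The log2 fold change on the high-fat diet was 0.00 in transgenic mice, with a 95% interval from -0.56 to 0.57, and 0.36 in wild-type mice, with an interval from -0.21 to 0.92. The wild-type value was 0.02 without wild-type high-fat replicate 3. These intervals leave room for a change in either direction, so Sfrp2 is not shown to be unaffected by diet.

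Sfrp1, a broadly expressed Wnt antagonist at chr8:23411383-23449632 on the plus strand, was the member whose transgenic high-fat libraries all lay below the transgenic control libraries in CPM. It had 7.70, 7.92 and 5.35 CPM in transgenic high-fat libraries and 12.3, 11.5 and 8.11 CPM in transgenic control libraries, with a gap of 0.193 CPM between the closest libraries. Scaled by the normalization factors of the fit (TMM), these groups overlapped. Transgenic high-fat replicate 2 was then at 8.10 and transgenic control replicate 3 at 7.81 CPM. The log2 fold change was -0.59 (standard error 0.24). Wild-type high-fat libraries had 8.31, 6.87 and 10.5 CPM and wild-type control libraries 7.60, 9.21 and 6.69 CPM, and these overlapped, with a log2 fold change of 0.05 (standard error 0.24). The highest group mean was that of transgenic control fat at 10.7 ± 2.23 CPM, against 7.84 ± 1.27 CPM in wild-type control fat (SD, n = 3 each).

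Counted over the family, 1 of 5 members (Sfrp5) passed an adjusted p of 0.05 for diet in transgenic mice, where 8.73% of all tested genes did (edgeR's quasi-likelihood test with Benjamini-Hochberg adjustment). For the diet effect averaged over both genotypes it was 2 of 5 (Sfrp5 and Frzb), with 17.4% of all genes. The mean diet effect was 1.58 (standard error 0.26) for Sfrp5, 1.23 (0.36) for Frzb, 0.96 (0.32) for Sfrp4, 0.18 (0.18) for Sfrp2 and -0.27 (0.17) for Sfrp1 on the log2 scale. Frzb kept its call in 4 of the 12 fits that each left out 1 library, those without transgenic control replicate 3, transgenic high-fat replicate 1, wild-type control replicate 3 or wild-type high-fat replicate 1, and lost it without any 1 of the other 8 and when both libraries with high epithelial markers were left out (log2 fold change 0.89), whereas Sfrp5 kept it in 12 of 12. Sfrp4 was called for the mean diet effect beside these 2 with limma-voom, without a filter beyond 1 count and with a replicate block. For diet in wild-type mice edgeR called 0 of 5 members, with 1.14% of all genes called, 3 members at an unadjusted p below 0.05, 0 called by DESeq2 and 1 by limma-voom. For the transgene on chow it called 0 of 5 against 0.0363% of all genes, with 1 member at an unadjusted p below 0.05, 1 called by DESeq2 and 0 by limma-voom. For the transgene on the high-fat diet and for the interaction it called 0 of 5 members and 0% of all genes, with 0 and 1 members at an unadjusted p below 0.05, and DESeq2 and limma-voom called 0 members in both. Over all 16550 genes, edgeR's unadjusted p was below 0.05 for 4278 genes for diet in transgenic and 2991 for diet in wild-type mice. The number was 1816 for the transgene on chow, 1114 for it on the high-fat diet and 929 for the interaction. Because the members were picked with these values known, nothing is read from these counts.

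The same holds for separation of the libraries. In transgenic mice 2 of 5 members were higher in CPM on the high-fat diet without overlap, where 12.6% of all genes were, and 1 of 5 was lower, where 14.4% were. The lower member was Sfrp1, which overlapped after scaling by the normalization factors of the fit. In wild-type mice 2 of 5 were higher, where 16.8% of all genes were. Transgenic libraries were below wild-type ones without overlap for 1 of 5 members on chow and 1 of 5 on the high-fat diet, where 6.38% and 13.2% of all genes were. That member was Sfrp5 in both cases. The authors' deposited table gave Sfrp5 a log2 fold change of 2.26 with a standard error of 0.27 for diet in transgenic mice and -1.64 with a standard error of 0.63 for the transgene on chow. In the same authors' deposited table Sfrp4 also passed for diet in transgenic mice, with a log2 fold change of 0.77, a standard error of 0.25 and an adjusted p of 0.0297 from their DESeq2 test.

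**Figure D2:**
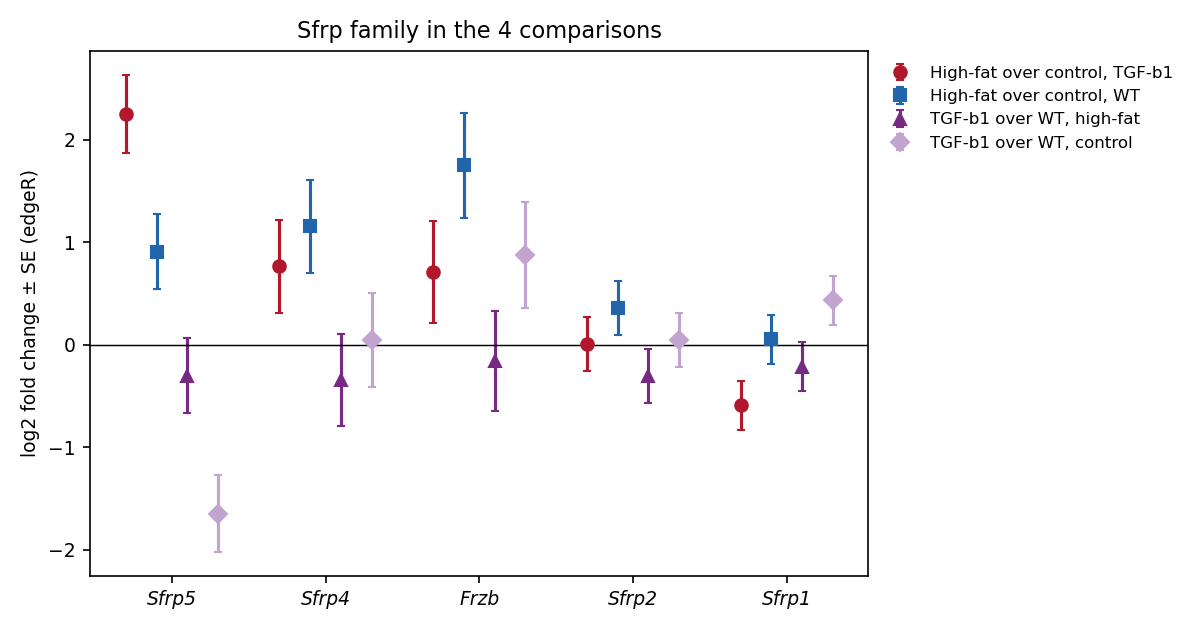
Fitted log2 fold change with standard error (edgeR, vertical axis) of the 5 members in the 4 pairwise comparisons. Sfrp5 spans from 2.25 for diet in transgenic mice to -1.65 for the transgene on chow, while Sfrp2 stays between -0.31 and 0.36.

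Markers of other cells moved with some of these values. Mesothelium markers were below every control library in every high-fat library, the opposite direction to Sfrp5. The part of mesothelium in the result was not tested. Schwann-cell markers, 6 genes with none at 0 in any library, summed to 311 to 342 CPM in transgenic high-fat, 212 to 277 in transgenic control, 309 to 333 in wild-type high-fat and 287 to 517 in wild-type control libraries. The sum was thus higher on the high-fat diet in transgenic mice without overlap and lowest in transgenic control fat, as Sfrp5 was. Most of it was Pmp22, at 253 to 277 CPM in transgenic high-fat and 154 to 220 in transgenic control libraries. The list did not rise as a set, since 2 of its 6 genes had a positive log2 fold change there and the median was -0.27. The 2 genes of that list that rose in transgenic mice were S100b (log2 fold change 2.32, edgeR adjusted p = 0.00194) and Pmp22 (0.56, adjusted p = 0.0412), while Sox10 (-0.35) and Mbp (-0.18) did not pass. The S100b call held in all 12 fits that left out 1 library, and the Pmp22 call in the 3 without transgenic control replicate 1 or wild-type control replicate 1 or 3 (adjusted p up to 0.119 in the others). Sox10, a transcription factor of Schwann cells, had at most 1.23 CPM in the transgenic libraries. Endothelial markers, also with none of 6 genes at 0, did not overlap between the diets in wild-type mice, at 746 to 865 CPM in high-fat and 583 to 632 in control libraries, and overlapped in transgenic mice, at 670 to 873 CPM in high-fat and 717 to 892 in control libraries. By genotype on chow, the endothelial sum was higher in transgenic than in wild-type libraries without overlap, and the Schwann-cell sum was lower without overlap. Smooth-muscle and pericyte markers, 8 genes, were also higher there without overlap, at 665 to 891 CPM in transgenic control and 488 to 639 in wild-type control libraries. They overlapped between the genotypes on the high-fat diet. The part of Schwann-cell, endothelial, smooth-muscle and pericyte markers in the results was not tested. For Sfrp5 in transgenic mice the log2 fold change was 2.74 without both libraries with high muscle markers and 2.01 without both libraries with high epithelial markers. Each pair holds 1 transgenic library, so these values repeat those without transgenic control replicate 3 alone (2.74) or replicate 2 alone (2.01). The part of muscle and epithelial markers in the result was not tested. Summed adipocyte markers overlapped between all 4 groups. Fibroblast and progenitor markers, from cells in which several Sfrp genes are known to be expressed, overlapped throughout, at 4103 to 5670.1 CPM in transgenic high-fat, 4712 to 5322 in transgenic control, 4678 to 5688 in wild-type high-fat and 4621 to 6354 in wild-type control libraries. In whole tissue, fewer cells of a type and less RNA per cell cannot be told apart.

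Levels of different genes can be set side by side only per transcript length, here as CPM per kilobase of merged exons. On that scale Sfrp5 stood at 249 ± 15.8 in transgenic high-fat, 53.7 ± 29.3 in transgenic control, 325 ± 41.8 in wild-type high-fat and 167 ± 99.3 in wild-type control fat (SD, n = 3 each). Sfrp2 followed at 19.5, 19.7, 25.5 and 19.0 in the same groups. Sfrp4 averaged between 4.61 and 10.6, Frzb between 1.52 and 5.40 and Sfrp1 between 1.60 and 2.44 over the groups.

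The family total per kilobase was 282 ± 22.4 in transgenic high-fat, 83.4 ± 29.8 in transgenic control, 368 ± 26.0 in wild-type high-fat and 194 ± 102 in wild-type control fat (SD, n = 3 each). Sfrp5 made up 88.2% of that total in transgenic high-fat libraries, 61.7% in transgenic control, 87.9% in wild-type high-fat and 84.0% in wild-type control. Transgenic control fat thus had the lowest total and the most even mixture, with Sfrp2 at 26.1% of the family, against 6.83% in transgenic high-fat, 7.05% in wild-type high-fat and 11.8% in wild-type control. The level of Sfrp2 itself was nearly equal in the transgenic groups, so its larger share went with the lower Sfrp5.

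**Figure D3:**
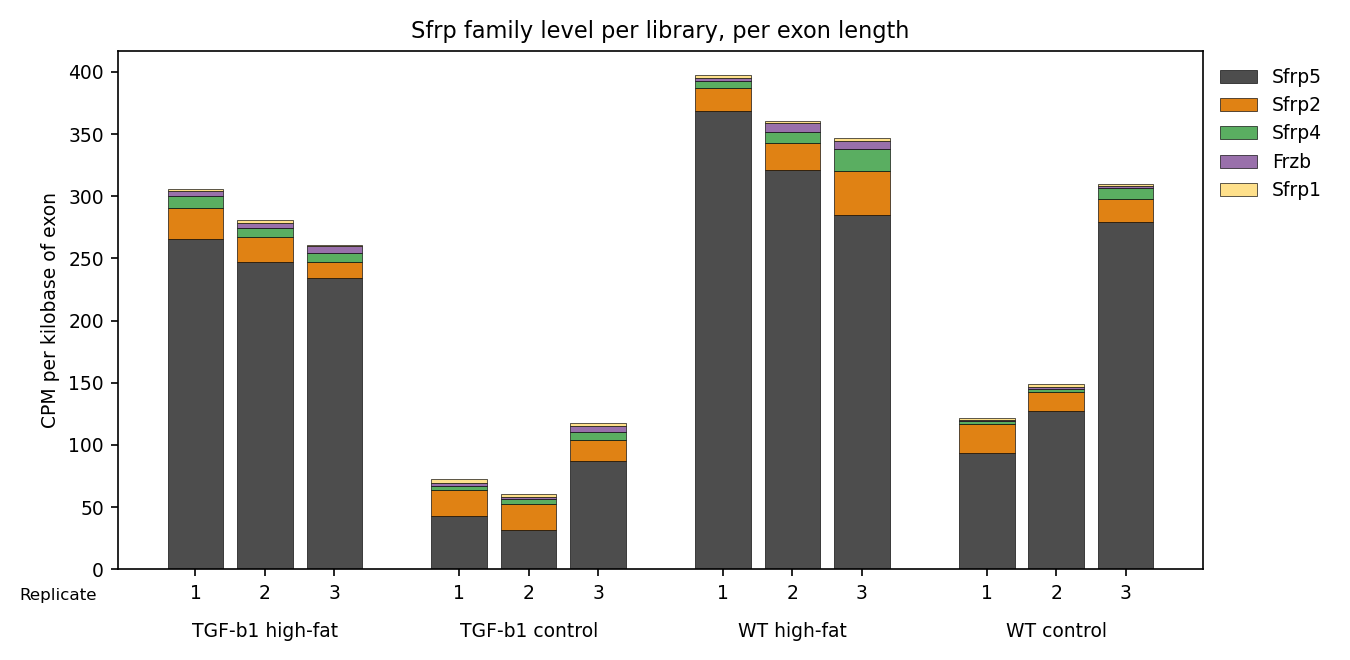
Stacked bars of the 5 members in each library, in CPM per kilobase of exon (linear axis from 0), grouped by genotype and diet. The bars are tallest in wild-type high-fat libraries (347 to 397 in total) and shortest in transgenic control libraries (60.8 to 117), and Sfrp5 fills most of each bar.

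The members followed different patterns over the libraries. With each gene centred on its own mean, the root mean square difference of log2 CPM over the 12 libraries was smallest between Sfrp1 and Sfrp2 (0.35), and next between Frzb and Sfrp4 (0.66). Sfrp5 was 0.86 from Sfrp4, its nearest family member on this measure, against 1.12 for its own spread about its mean. The distance of Sfrp1 and Sfrp2 was no smaller than their own spreads about their means, both 0.34. By the spread of log2 CPM over the libraries Sfrp5 ranked 319 among 16550 genes, Frzb 522 and Sfrp4 1251, while Sfrp1 and Sfrp2 ranked 6007 and 6028. These distances describe 12 libraries that share groups and depth and carry no test.

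Among 13088 genes compared on this measure, those closest to Sfrp5 were Gabrr2 (0.37), a GABA receptor subunit gene, Crtac1 (0.40), which encodes a secreted cartilage matrix protein, and Cacna1e (0.43), a calcium channel subunit gene, against a median of 1.14 over all genes. Closest to Sfrp4 were the matrix genes Fbln7 (0.32) and Mfap4 (0.40) and the endoribonuclease gene Endou (0.40). Endou was also closest to Frzb (0.51), followed by Mtss2 (0.56) and the collagen VI gene Col6a3 (0.56). Mfap4 had 23.3, 29.4 and 21.0 CPM in transgenic high-fat, 14.8, 10.3 and 18.0 in transgenic control, 35.2, 28.4 and 60.9 in wild-type high-fat and 10.3, 13.4 and 25.4 in wild-type control libraries. Its highest library, wild-type high-fat replicate 3, was also the highest for Sfrp4. The closest gene to Sfrp1 was Cnbd2 (0.15) and the closest to Sfrp2 was Gngt2 (0.17).

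Crtac1 is also a near neighbour of Sfrp5 on chromosome 19, at chr19:42283035-42432966, with its nearer end 80.8 kb away. The neighbours were looked at after their values had been seen. Crtac1 had 44.1, 46.4 and 48.0 CPM in transgenic high-fat, 9.43, 10.0 and 16.2 in transgenic control, 42.9, 47.1 and 37.5 in wild-type high-fat and 11.3, 24.0 and 39.2 in wild-type control libraries. As with Sfrp5, the third replicate was the highest library in both control groups, and the transgenic groups were far apart. For diet in transgenic mice its log2 fold change was 1.99 (standard error 0.33, edgeR adjusted p = 0.00486), a rise that was called in all 12 fits that left out 1 library. In wild-type mice it was 0.71 (standard error 0.31, edgeR adjusted p = 0.259).

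Golga7b, which lies between Sfrp5 and Crtac1 at a distance of 45.3 kb from Sfrp5, had 10.6, 23.1 and 28.7 CPM in transgenic high-fat libraries and 6.92, 3.98 and 5.96 CPM in transgenic control libraries. In wild-type mice it had 26.2, 18.1 and 13.7 CPM in high-fat and 22.6, 22.0 and 12.5 CPM in control libraries, with overlap. Its log2 fold change was 1.92 (edgeR adjusted p = 0.012) for diet in transgenic mice and -0.06 (adjusted p = 0.952) in wild-type mice. The transgenic call was lost without transgenic high-fat replicate 3 (adjusted p = 0.0511). On the other side, Zfyve27 at 3.38 kb, the nearest gene to Sfrp5, had a log2 fold change of 0.10 (adjusted p = 0.586), and Marveld1 at 46.3 kb had 0.52 (adjusted p = 0.0136), lost without transgenic high-fat replicate 3 (adjusted p = 0.0518). The nearest gene to Sfrp4, Epdr1 at 3.35 kb, did not pass (-0.38, adjusted p = 0.309). Gpr141b, at 94.6 kb from Sfrp4, passed (1.47, adjusted p = 0.0234) at a mean level of 0.922 CPM, and its call was lost without transgenic control replicate 2 or 3 or transgenic high-fat replicate 2 (adjusted p up to 0.0775). None of the tested neighbours of Sfrp1, Sfrp2 or Frzb was called for diet in transgenic mice by edgeR.

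**Figure D4:**
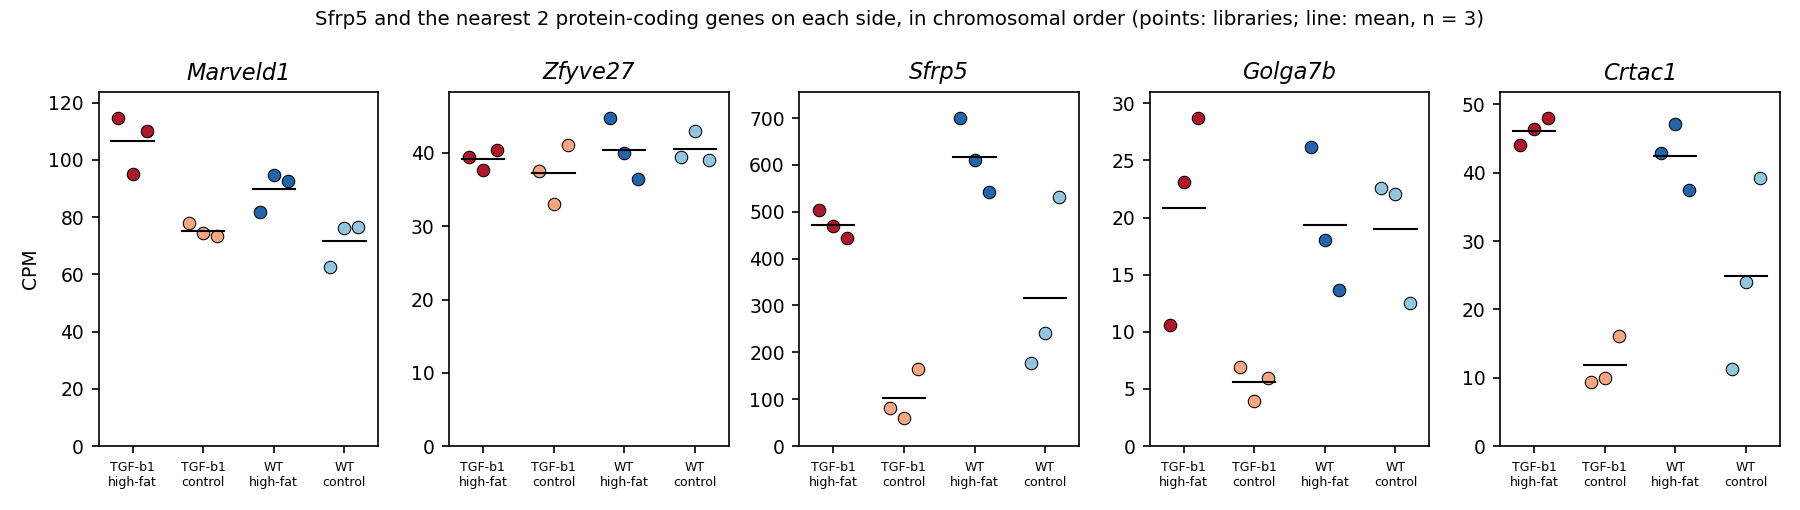
CPM by library (points; lines are means, n = 3; linear axes from 0) for Sfrp5 and the nearest 2 protein-coding genes on each side, in chromosomal order. Crtac1 (44.1 to 48.0 in transgenic high-fat, 9.43 to 16.2 in transgenic control) separates the transgenic groups as Sfrp5 does. Unlike Sfrp5, it overlaps between the diets in wild-type mice and between the genotypes on the high-fat diet. Zfyve27, the nearest gene, lies between 33.1 and 44.7 CPM in all 12 libraries.

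The rest of the Wnt pathway was taken from 7 lists of 81 genes, of which 62 passed the filter. The lists were chosen with earlier results of these data known, so their counts are a description. For diet in transgenic mice 3 of the 62 rose and 10 fell by edgeR's adjusted p, which is 21.0% of them against 8.73% of all genes (5.39% rose and 3.34% fell). The number called was 8 without transgenic control replicate 1, 8 without transgenic high-fat replicate 1 and 6 without transgenic high-fat replicate 3. Over all genes those fits called 572, 912 and 543, against 1445 with all libraries. Mesothelium markers, given above, were lower in the same high-fat libraries, and their part in these falls was not tested. The median log2 fold change of the 62 was -0.13, against -0.02 over all genes tested. For diet in wild-type mice 1 rose and 1 fell, or 3.23% against 1.14% of all genes (0.683% rose and 0.453% fell), and the number called was 0 without any 1 wild-type library other than control replicate 3, without which it was 1. Over all genes the calls went from 188 to 2, 13 and 269 without wild-type control replicates 1 to 3. They went to 9, 0 and 17 without wild-type high-fat replicates 1 to 3. For the mean diet effect 4 rose and 13 fell, or 27.4% against 17.4% of all genes (9.43% rose and 7.98% fell), and the number called was 11 without transgenic high-fat replicate 3 and 11 without wild-type high-fat replicate 1. Over all genes these 2 fits called 1986 and 1952, against 2882 with all libraries. For the transgene edgeR called 0 of the 62 on either diet, with 14 at an unadjusted p below 0.05 on chow and 8 on the high-fat diet. DESeq2 called 4 of them on chow and 0 on the high-fat diet, and limma-voom 0 on both. Over all 16550 genes, 1816 had an unadjusted p below 0.05 on chow and 1114 on the high-fat diet (edgeR). DESeq2 called 252 of all genes on chow and 5 on the high-fat diet, and limma-voom 8 and 0.

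Among the 11 tested Wnt ligands, Wnt2b and Wnt4 fell on the high-fat diet in transgenic mice and the other 9 did not pass. Wnt2b, which signals through beta-catenin, had 8.37, 15.2 and 5.26 CPM in transgenic high-fat and 44.1, 32.6 and 48.7 CPM in transgenic control libraries (log2 fold change -2.09, standard error 0.31, edgeR adjusted p = 0.00285). It also fell in wild-type mice, with 17.9, 12.4 and 17.0 CPM in high-fat and 57.5, 40.4 and 58.1 CPM in control libraries (-1.78, standard error 0.30, adjusted p = 0.0244). That is the opposite direction to Sfrp5, with no overlap in either genotype, and it is the direction of the mesothelium markers, whose part in it was not tested. The wild-type call was kept in 7 of 12 fits that left out 1 library and lost (adjusted p up to 0.132) without wild-type control replicate 1 or 2 or any wild-type high-fat replicate. Wnt4, known for its part in the development of the kidney and female tract, had 0.856, 1.69 and 0.964 CPM in transgenic high-fat and 5.14, 8.16 and 4.55 CPM in transgenic control libraries (-2.33, adjusted p = 0.00347). In wild-type mice it did not pass, with 1.34, 2.87 and 2.38 CPM in high-fat and 2.01, 2.12 and 1.95 CPM in control libraries, and the groups overlapped.

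Of 9 frizzled receptors Fzd7 fell in transgenic mice, with 20.0, 19.1 and 18.0 CPM in high-fat and 24.3, 27.0 and 30.3 CPM in control libraries (log2 fold change -0.49, edgeR adjusted p = 0.0377). That call was the least firm, kept in the 3 fits without a wild-type control library and lost without any 1 of the other 9 libraries (adjusted p up to 0.128). Of 6 co-receptors edgeR called 0, with 1 at an unadjusted p below 0.05. Of 7 other antagonists Dkk3, a dickkopf-family secreted protein, fell, with 5.47, 7.36 and 2.65 CPM in transgenic high-fat and 15.2, 12.2 and 14.7 CPM in transgenic control libraries (-1.42, adjusted p = 0.0207). This call was lost without transgenic control replicate 1 or transgenic high-fat replicate 1 or 3 (adjusted p up to 0.0702). None of these 7 listed genes was called higher for diet in transgenic mice. The highest value was that of Wif1 at 0.96, which had at most 1.45 CPM in those libraries and did not pass.

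Of 6 agonists, genes of the R-spondins and their receptors that amplify Wnt signalling, 3 fell in transgenic mice. Rspo1 had 25.0, 28.2 and 14.0 CPM in transgenic high-fat and 58.3, 40.7 and 55.2 CPM in transgenic control libraries (log2 fold change -1.17, edgeR adjusted p = 0.00758). Its receptors Lgr5 (-2.28, adjusted p = 0.0228) and Lgr6 (-2.08, adjusted p = 0.03) had at most 2.62 and 10.6 CPM. Lgr5 and Lgr6 each kept the call in 8 of 12 fits that left out 1 library, with adjusted p up to 0.0785 and 0.123. Both lost it without transgenic control replicate 1, transgenic high-fat replicate 1 or transgenic high-fat replicate 3, and also without transgenic control replicate 2 for Lgr5 and replicate 3 for Lgr6. Of 12 genes of the beta-catenin machinery edgeR called 0 in transgenic mice, with 3 at an unadjusted p below 0.05.

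The 11 target genes went both ways in transgenic mice, with 3 that rose, 3 that fell and 5 that did not pass. Axin2, the most used readout of canonical Wnt signalling, had 24.2, 21.0 and 20.1 CPM in transgenic high-fat and 30.8, 40.7 and 43.9 CPM in transgenic control libraries, a fall without overlap (log2 fold change -0.80, edgeR adjusted p = 0.027). In wild-type mice the groups overlapped, at 32.5, 37.3 and 27.0 CPM in high-fat and 26.4, 41.6 and 28.1 CPM in control libraries. Tnfrsf19 (-2.22, adjusted p = 0.00486) and Sp5 (-3.14, adjusted p = 0.0115) fell from low levels of at most 5.98 and 1.45 CPM. Nkd1, a feedback inhibitor, rose, with 72.8, 82.4 and 60.8 CPM in transgenic high-fat and 47.8, 32.4 and 44.9 CPM in transgenic control libraries (0.81, adjusted p = 0.00649). Ccnd1, a cyclin gene with many other inputs, rose in transgenic (0.86, adjusted p = 0.0161) and in wild-type mice (0.96, adjusted p = 0.0342). Dact1, which acts on dishevelled, rose in transgenic mice (0.67, adjusted p = 0.0255). Target genes as a list thus gave no single direction beside the higher Sfrp5.

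Of these target genes, the calls of Sp5, Tnfrsf19 and Nkd1 held in all 12 fits that left out 1 library, as did those of Wnt2b, Wnt4 and Rspo1 for diet in transgenic mice. Axin2 lost its call without transgenic control replicate 2 or 3 or any transgenic high-fat replicate (adjusted p up to 0.11), Dact1 without transgenic control replicate 1 or 3 or transgenic high-fat replicate 2 or 3 (up to 0.0888), and Ccnd1 without transgenic control replicate 2 or transgenic high-fat replicate 3 (up to 0.0517). In wild-type mice Ccnd1 lost its call without any 1 of the 6 wild-type libraries (up to 0.107).

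**Figure D5:**
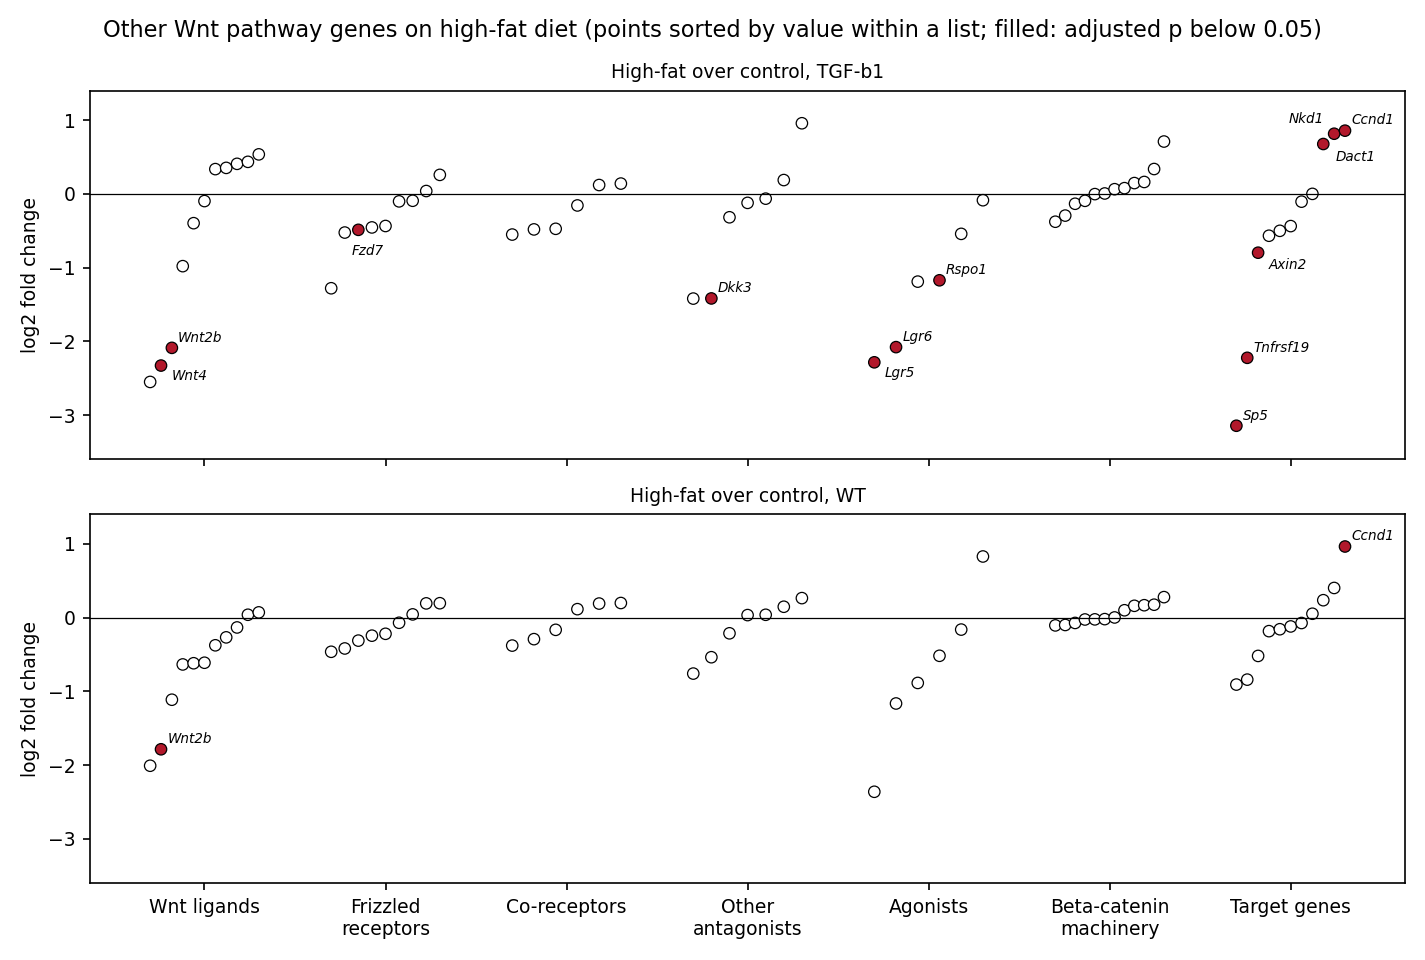
Log2 fold change on the high-fat diet (vertical axis) of the 62 tested Wnt pathway genes outside the Sfrp family, by list, in transgenic (top) and wild-type mice (bottom), with filled points for an adjusted p below 0.05. In transgenic mice 10 genes fell and 3 rose, and in wild-type mice Wnt2b fell and Ccnd1 rose.

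Sfrp5 is known in mice as one of a set of fat genes, Mest among them, whose transcripts follow the growth of a depot, so a list of 8 such genes was read beside it. The list was chosen with earlier results of these data known and its genes were named after their values were seen. Its counts are therefore a description, and nothing is read from them. For diet in transgenic mice 5 of the 8 rose, against 5.39% of all genes: Mest, Npr3, Cav1, Cavin1 and Lep. Mest, an imprinted gene, had 875.5, 1297 and 1789 CPM in transgenic high-fat and 157, 419 and 232 CPM in transgenic control libraries (log2 fold change 2.31, standard error 0.50, edgeR adjusted p = 0.0167). Leptin (Lep) had 1629, 1814 and 3361 CPM in transgenic high-fat and 845, 724 and 647 CPM in transgenic control libraries (1.64, adjusted p = 0.00516). Npr3, the clearance receptor for natriuretic peptides, was the 1 gene of the list that edgeR also called by genotype on chow, against 0.0363% of all genes. At an unadjusted p below 0.05 there were 4 of the 8 on chow, and 1816 of all 16550 genes. Besides Npr3 these were Lep (log2 fold change -1.10), Mest (-1.23) and Cav1 (-0.40). Npr3 had 552, 540.0 and 642 CPM in transgenic control and 1055, 1082 and 1144 CPM in wild-type control libraries (-0.93, edgeR adjusted p = 0.0315). That genotype call was kept in 4 of 12 fits that left out 1 library (adjusted p up to 0.171), those without transgenic control replicate 3, wild-type control replicate 3, transgenic high-fat replicate 1 or wild-type high-fat replicate 1. For diet in transgenic mice Npr3 and Lep kept their calls in all 12 such fits. Mest lost it without transgenic control replicate 1 or transgenic high-fat replicate 3 (adjusted p up to 0.07), Cav1 without either of these or transgenic high-fat replicate 2 (up to 0.0642), and Cavin1 without any transgenic library or wild-type high-fat replicate 2 (up to 0.109). In wild-type mice edgeR called 0 of the 8 for diet, with 4 at an unadjusted p below 0.05, and all 8 had a positive log2 fold change.

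Secreted frizzled-related proteins, Sfrp2 in particular, are also tied in mice to the procollagen protease Bmp1, so 7 genes of that axis were read, of which 6 passed the filter. This list, too, was chosen with earlier results known and named after its values were seen, and nothing is read from its counts. For diet in transgenic mice 3 of the 6 rose, against 5.39% of all genes. These were Bmp1 (log2 fold change 0.45, edgeR adjusted p = 0.0292), Col1a1 (0.71, adjusted p = 0.0159) and endogenous Tgfb1 (0.46, adjusted p = 0.0106). Tgfb1 had 75.0, 73.3 and 79.6 CPM in transgenic high-fat and 51.1, 53.7 and 64.2 CPM in transgenic control libraries. In wild-type mice Tgfb1 was the 1 gene of the 6 that rose, against 0.683% of all genes, with 68.9, 73.9 and 65.4 CPM in high-fat and 47.1, 43.3 and 47.4 CPM in control libraries (0.52, adjusted p = 0.0244). The Tgfb1 call held in all 12 fits that left out 1 library in transgenic mice and in 7 of 12 in wild-type mice, lost without wild-type control replicate 1 or 2 or any wild-type high-fat replicate (adjusted p up to 0.117). Col1a1 lost its call without transgenic control replicate 1 (0.0661), and Bmp1 without transgenic control replicate 1 or 2 or any transgenic high-fat replicate (up to 0.0981). Sfrp2, as given above, overlapped between the diets in both genotypes.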

How the data were processed

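The 12 libraries hold RNA of visceral white fat, with 3 for each of the 4 groups, which were read from the sample titles and checked against the genotype and diet labels. The authors deposited raw read counts per gene for each library. The tools named in the submitters' processing notes are HISAT2 2.2.0, HTSeq 2.0 and, for testing, DESeq2 1.32.0, on build mm10. Which annotation the counting used, and with which strand setting, is not given in the sources used here. Per the file headers, the authors also deposited a table for each pairwise comparison holding a mean normalized signal, a log2 fold change with standard error, a Wald score, and p-values raw and adjusted, used only where named.

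CPM is a gene's count relative to the library's total over gene rows. The 5 summary entries (16.8% to 21.0% of reads) stayed out of totals and tests. In R 4.3.3, edgeR 4.0.16 fitted the 4 group means over all 12 libraries with TMM factors, after filterByExpr (minimum count of 10, minimum total of 15), with 8 residual degrees of freedom and a biological coefficient of variation of 20.1%. The quasi-likelihood F test was adjusted by Benjamini-Hochberg over 16550 genes and genes below 0.05 were called. Standard errors are the log2 fold change over the square root of F. Alternatives used DESeq2 1.42.0 and limma 3.58.1 (voom), other scalings and filters, a replicate block, and fits without single libraries. The test was checked on simulated data. Likeness used log2 CPM with a prior count of 2 over genes with a mean of at least 1 CPM.

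Exon lengths came from the annotation of GRCm38, and upstream sequences from RefSeq on GRCm38.p6, which matched 3 of the 5 members. The members and lists were chosen with earlier results of these data known. Genes outside the family are named by rule: per Wnt list up to 4 genes with the smallest p for the mean diet effect and up to 6 called genes (those that say nothing on the family are left out), and per member the 3 most alike genes. The neighbours and the genes of the last 2 lists were named after their values were seen. No 2 libraries agreed within counting noise (lowest chi-square per degree of freedom 18.8, 66 pairs).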

Additional observations from a re-analysis of the deposited data

How the results depend on the processing

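The alternatives other than leaving out 1 library gave 260 member log2 fold changes. Of these, 259 differed from the main value by less than the member's within-group SD of log2 CPM. Among values called in the main fit 0 changed sign, and changes of sign in the others were not counted. The 1 that moved further was the Sfrp4 interaction. It changed sign, to 0.51 without both libraries with high muscle markers, against -0.39 in all libraries, and the cause was not tested. Fits without 1 library also changed some signs. Without wild-type high-fat replicate 3, for example, the Sfrp4 interaction was 0.20 and Sfrp1 for diet in wild-type mice was -0.13. For diet in wild-type mice the number of members called was 0, against 1 (Sfrp5) with limma-voom and 2 (Frzb and Sfrp4) without a filter beyond 1 count. For the transgene on chow it was 0, against 1 (Sfrp5) with DESeq2 and 1 without that filter. For the mean diet effect it was 2 (Sfrp5 and Frzb), against 1 without both libraries with high epithelial markers and 3 (with Sfrp4) under limma-voom, without that filter and with the replicate block. Leaving out 1 library gave 1 to 3 members for the mean diet effect, 0 to 1 for the transgene on chow, and a Sfrp5 diet effect in wild-type mice of 0.63 to 1.46. The number of Wnt pathway genes called for diet in wild-type mice was 2, against 0 without both epithelium-rich and 0 without both muscle-rich libraries. Over all genes it was 188, against 32 and 23. For the transgene on chow the number of Wnt pathway genes was 0, against 4 with DESeq2 and 2 without the filter, and for the interaction 0, against 1 with DESeq2 and 1 without the filter. Over all genes DESeq2 called 252 for the transgene on chow and 26 for the interaction. Without the filter 269 and 53 of 32315 genes were called. Leaving out 1 library gave 0 to 3 Wnt pathway genes for diet in wild-type mice, 6 to 13 in transgenic mice, 11 to 16 for the mean diet effect and 0 to 1 for the transgene on chow. Over all genes these ranges were 0 to 269, 543 to 1504, 1868 to 2993 and 0 to 58. Whether replicate numbers pair the libraries was not settled (18 same-numbered pairs correlated between -0.11 and 0.27, 4 above 0.1). Transgenic control replicate 3 correlated at 0.15, 0.16 and 0.27 with the third replicates of the other groups. With 3 libraries a group, such correlations cannot exclude a pairing. A replicate block gave 1 Wnt pathway gene in place of 2 for diet in wild-type mice and changed no other count by more than 1.5 times. With 3 libraries a group, the spread between libraries limits what can be told apart, with standard errors for diet in transgenic mice of 0.24 for Sfrp1 to 0.50 for Frzb.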
